A study of Mus musculus with 8 samples.

Results

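The 10 genes described here mark the resident macrophages of the heart and were followed in RNA from the ventricle of mice with and without a Cre recombinase. They are Lyve1, Timd4, Folr2, Mrc1, Cd163, C1qa, C1qb, C1qc, Csf1r and Cx3cr1, taken as the rows of the deposited gene table that carry these symbols. All 10 were among the 24341 genes of that table, and all 10 entered the test, which covered the 11685 genes whose mean reached 1 FPKM. FPKM stands for fragments per kilobase of transcript, scaled by the mapped fragments of the library, so levels can be compared between genes. The study sequenced 8 libraries from ventricular lysate of male mice aged 12 weeks, 4 per group. All 8 carried the Med13/13L fl/fl alleles and were given Tamoxifen Chow. The Neg Cre group had the genotype Cre Negative and the Pos Cre group Cre Positive, and 4 weeks separated tamoxifen from collection. The series title places the deletion in cardiomyocytes, the labels do not name the Cre line, and no group had Cre without floxed alleles, so effects of Cre and of the deletion cannot be told apart. The labels do not say whether the libraries come from separate animals, so the p-values measure the spread between these libraries.

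Resident macrophages of the heart are tissue cells that persist largely without input from blood monocytes, and they clear dead cells and cellular debris. The set of cells with Timd4, Lyve1 and Folr2 is best known for this long residence. Lyve1 is a hyaluronan receptor, Timd4 binds phosphatidylserine on dying cells, and Folr2 is a folate receptor. Mrc1 (the mannose receptor, CD206) and Cd163 (the receptor for haemoglobin bound to haptoglobin) are scavenger receptors. C1qa, C1qb and C1qc encode the chains of C1q, which starts the classical complement pathway. Csf1r is the receptor for the macrophage growth factors CSF1 and IL-34, and Cx3cr1 is the receptor for fractalkine.

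The upstream sequence of 3 members is shown because these members differ in which letters of 2 macrophage factor motifs they hold. From the RefSeq table of GRCm38.p6, 8 windows of 250 bases were read for 7 of the 10 members. These were Mrc1, C1qb, C1qc, Cd163, Folr2, Cx3cr1 and Timd4. No window was read for Lyve1, C1qa and Csf1r, and the motif counts leave these members out. Each window ends just before a start annotated in RefSeq and is read 5′ to 3′ on the strand of the gene. By a second annotation, GENCODE, exons of the gene itself cover 250 bases of the Cx3cr1 window and 151 of the C1qc window. They cover 22 bases of the Mrc1 window and 4 of a Folr2 window. Capitals mark GAGGAA, the core of sites for PU.1 (a factor needed to make macrophages), or TGCTGA, the core of sites for the Maf factors, on either strand, so that TTCCTC and TCAGCA are the same motifs read from the other side.
C1qb, chr4:136886201-136886450, minus strand: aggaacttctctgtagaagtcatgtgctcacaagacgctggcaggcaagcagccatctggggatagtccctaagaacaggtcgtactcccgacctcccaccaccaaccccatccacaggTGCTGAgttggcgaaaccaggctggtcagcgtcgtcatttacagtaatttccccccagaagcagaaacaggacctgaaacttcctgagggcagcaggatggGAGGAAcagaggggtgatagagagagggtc
Mrc1, chr2:14229164-14229413, plus strand: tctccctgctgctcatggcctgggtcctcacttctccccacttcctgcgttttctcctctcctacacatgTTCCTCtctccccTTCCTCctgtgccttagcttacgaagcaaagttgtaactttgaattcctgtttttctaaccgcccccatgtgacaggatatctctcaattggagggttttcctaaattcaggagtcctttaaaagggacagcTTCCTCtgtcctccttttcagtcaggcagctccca
Timd4, chr11:46810549-46810798, plus strand: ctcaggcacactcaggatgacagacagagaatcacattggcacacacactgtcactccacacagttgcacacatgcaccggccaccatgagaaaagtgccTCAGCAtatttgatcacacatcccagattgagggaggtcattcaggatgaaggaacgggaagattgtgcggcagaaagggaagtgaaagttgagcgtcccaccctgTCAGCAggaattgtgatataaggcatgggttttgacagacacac
The window of C1qb held 1 match to each motif, that of Mrc1 held 3 matches to GAGGAA and none to TGCTGA, and that of Timd4 held 2 matches to TGCTGA and none to GAGGAA. The match of C1qb to GAGGAA began 30 bases before the start and its match to TGCTGA 131 bases before it. Over the 7 members with a window read, GAGGAA was found in 3 (Mrc1, C1qb and C1qc), against 23.3% of all 32851 windows of that length and 22.3% of windows of tested genes. TGCTGA was found in 3 (C1qb, Folr2 and Timd4), against 16.1% of all windows and 12.6% of those of tested genes. The looser C/EBP motif TTNNGNAA was found in 3 (Mrc1, C1qc and Cd163), against 36.8% and 28%. The counts are of members and the shares are of windows, so they are not on the same footing. These matches describe letters and not binding.

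The targeted genes were lower in the Pos Cre libraries. Mean and SD over the 4 libraries of a group are given throughout. Med13 was 12.04 ± 2.24 FPKM in Neg Cre and 8.13 ± 0.554 FPKM in Pos Cre (limma adjusted p = 0.00612), and Med13l was 4.92 ± 0.814 and 2.52 ± 0.113 FPKM (adjusted p = 0.000317). The call of Med13 was lost when libraries were scaled to the same sum of FPKM (adjusted p = 0.167) and among the libraries with high Rn45s (0.0529). Estimated depth ran from 4557000 to 23830000 fragments. Rn45s, the precursor of ribosomal RNA, stood at 396 to 1053 FPKM in Neg Cre 1, 3 and 4 and Pos Cre 1 and 2, and at 10.3 to 16.0 FPKM in Neg Cre 2 and Pos Cre 3 and 4. These sets are treated as library batches found in the data. Many genes differed between the groups, with 2307 higher and 2268 lower in Pos Cre at an adjusted p under 0.05. The summed FPKM of the genes was 545102 to 612162 in Neg Cre and 460601 to 478667 in Pos Cre, and scaling every library to the same sum turned the split into 5110 higher and 1068 lower and shifted the median over all genes from -0.01 to 0.24 on the log2 scale. Changes below are differences of mean log2(FPKM + 1), Pos Cre minus Neg Cre, which understate the change of low genes.

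Of the 10 members, 8 were lower in Pos Cre, none was higher, and 2 were not called. Of all genes tested, 39.2% were called, 19.4% lower and 19.7% higher. The 8 were Folr2, Lyve1, C1qa, Timd4, Cd163, Mrc1, C1qb and Csf1r, and their mean levels in Pos Cre were 37.0% (Timd4) to 71.5% (Csf1r) of those in Neg Cre. C1qc was lower without passing the test, and Cx3cr1 had a higher mean in Pos Cre, also without passing it. The median log2 change of the members was -0.67, beside -0.01 for all genes tested. The same 8 members had every Pos Cre library below every Neg Cre library, against 18.7% of all genes tested, and no member had the reverse, against 19.3%. At an unadjusted p under 0.05 the count was 9 lower and 0 higher in limma. The share of all genes at that cutoff was not counted, so this count has no background beside it. In bulk tissue RNA, fewer macrophages and less of these transcripts per macrophage cannot be told apart. With libraries scaled to the same sum, 6 members were called lower and the median became -0.42, against 0.24 for all genes. The count was also 6 among the 5 libraries with high Rn45s. Of the 11685 genes tested, that fit called 1532 lower and 1561 higher.

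**Figure D1:**
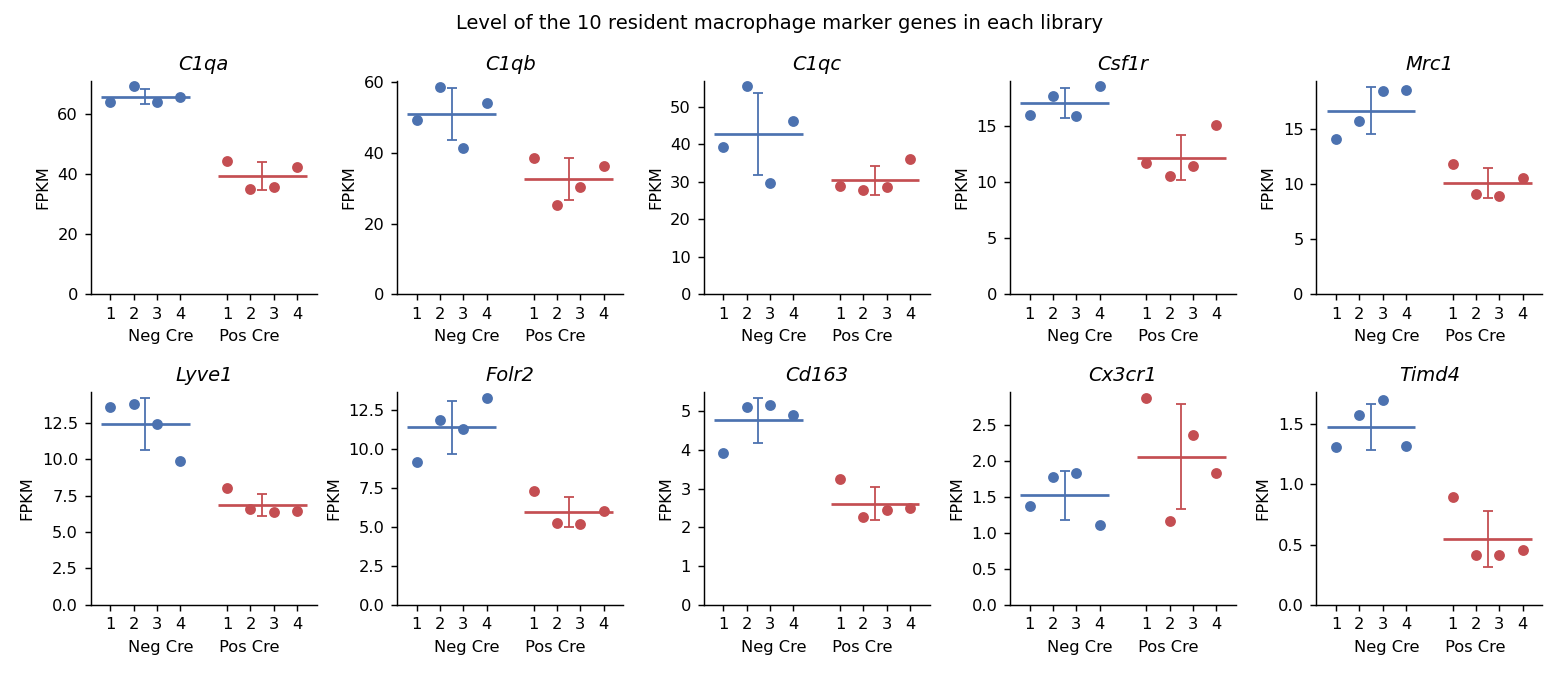
FPKM of each member (y axis, from 0) in the 4 Neg Cre (blue) and 4 Pos Cre (red) libraries, numbered on the x axis; horizontal lines are group means and bars are SD. The groups are separate in 8 panels and overlap for C1qc and Cx3cr1.

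The chains of C1q were the most abundant members, and C1qa and C1qb fell while C1qc did not pass the test. Their genes lie side by side on the minus strand of mouse chromosome 4 (mm10): C1qb at chr4:136880145-136886177, C1qc at chr4:136889802-136892914 and C1qa at chr4:136895916-136898844. C1qa measured 64.0, 69.4, 64.2 and 65.9 FPKM in Neg Cre 1 to 4 and 44.4, 35.1, 35.7 and 42.4 FPKM in Pos Cre 1 to 4. The groups were far apart relative to the spread within each, and the Neg Cre libraries lay close together. C1qa fell by 0.73 on the log2 scale (SE 0.09, adjusted p = 0.000118), and it was called under each of the 20 alternative fits.

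C1qb measured 49.4, 58.7, 41.5 and 54.2 FPKM in Neg Cre and 38.5, 25.1, 30.5 and 36.2 FPKM in Pos Cre. Here the groups nearly met, between 38.5 FPKM in Pos Cre 1 and 41.5 FPKM in Neg Cre 3. C1qb fell by 0.64 (SE 0.14, adjusted p = 0.00547), and the call was lost with libraries scaled to the same sum (-0.35, adjusted p = 0.0538) and among libraries with high Rn45s (-0.61, 0.0581).

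C1qc measured 39.4, 55.5, 29.7 and 46.2 FPKM in Neg Cre and 28.9, 27.9, 28.7 and 36.0 FPKM in Pos Cre. Neg Cre 3 sat at the level of the Pos Cre libraries, and Pos Cre 4 above the Neg Cre minimum. The log2 difference was -0.45 (SE 0.17, adjusted p = 0.0546). Of the 20 alternative fits, 5 called C1qc lower, among them the fits without Neg Cre 3 (-0.61, adjusted p = 0.00499), without Pos Cre 4 (-0.53, 0.0458) and with the Rn45s batch as a term (-0.53, 0.0155), and over all 20 the adjusted p ran from 0.00499 to 0.368.

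C1q protein holds its chains in equal numbers, and the transcripts were not equal. The ratio of C1qc to C1qa was 0.615, 0.799, 0.462 and 0.702 in Neg Cre and 0.652, 0.795, 0.802 and 0.847 in Pos Cre. The ratio of C1qb to C1qa was 0.771 ± 0.0891 in Neg Cre and 0.823 ± 0.071 in Pos Cre. Both ratios overlapped between the groups, and C1qc had the widest Neg Cre spread of the family.

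The genes of the long-lived Timd4, Lyve1 and Folr2 set fell the most as a share of the Neg Cre mean, together with Cd163. Lyve1 (chr7:110850607-110862953, minus strand) measured 13.6, 13.8, 12.4 and 9.86 FPKM in Neg Cre and 8.001, 6.60, 6.41 and 6.46 FPKM in Pos Cre. The lowest Neg Cre library, Neg Cre 4, lay above the highest Pos Cre library, Pos Cre 1. Lyve1 fell by 0.77 (SE 0.11, adjusted p = 0.000448) to 55.3% of the Neg Cre mean, and was called under each of the 20 alternative fits.

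Lyve1 also marks lymphatic endothelium, so the markers of that cell type were read beside it. Of 7 lymphatic markers tested, 2 rose (Pdpn, 0.69, adjusted p = 0.00452; Itga9, 0.59, 0.00446) and 1 fell (Prox1, -0.73, 0.000575). The count that rose was 4 with libraries scaled to the same sum. Their median change was 0.10, and their summed level was 56.6 to 68.5 FPKM in Neg Cre and 61.8 to 72 FPKM in Pos Cre. Flt4, the lymphatic growth factor receptor, was at 4.50 and 4.96 FPKM on average (adjusted p = 0.521). The part of lymphatic cells in the level of Lyve1 was not tested.

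Folr2 (chr7:101839988-101857190, minus strand) measured 9.17, 11.9, 11.3 and 13.3 FPKM in Neg Cre and 7.30, 5.24, 5.22 and 6.05 FPKM in Pos Cre. It fell by 0.84 (SE 0.13, adjusted p = 0.000496), the largest log2 change of the 10, and the groups did not overlap. Its locus overlaps the antisense gene Gm10602 and the pseudogene Gm45319 on the other strand. The sources used here do not state the use of strand in counting, so reads of these genes could not be kept apart from those of Folr2. Folr2 was called under each of the 20 alternative fits.

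Timd4 (chr11:46810799-46844333, plus strand) was the scarcest member and had the lowest share of its Neg Cre level, 37.0%. It measured 1.31, 1.58, 1.70 and 1.32 FPKM in Neg Cre and 0.899, 0.415, 0.416 and 0.456 FPKM in Pos Cre. Pos Cre 1 was above the other Pos Cre libraries and still under every Neg Cre library. Timd4 fell by 0.69 (SE 0.13, adjusted p = 0.0021). It passed the filter at a mean of 1 FPKM through the Neg Cre group alone, but the call held with no filter (adjusted p = 0.00257). The value rests on an estimated 15.8 to 52.6 fragments per Neg Cre library and 7.90 to 22.7 per Pos Cre library, and the call was lost among libraries with high Rn45s (adjusted p = 0.0537). Counted without Timd4, 7 of 9 members were lower. Within a library the ratio of Timd4 to Lyve1 was 0.12 ± 0.0187 in Neg Cre and 0.0777 ± 0.0234 in Pos Cre, and the groups overlapped through Pos Cre 1 (0.112).

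Both scavenger receptors fell. Mrc1 (chr2:14229414-14332023, plus strand) measured 14.1, 15.7, 18.4 and 18.6 FPKM in Neg Cre and 11.8, 9.13, 8.95 and 10.6 FPKM in Pos Cre. All Pos Cre libraries were below all Neg Cre libraries, with Pos Cre 1 and Neg Cre 1 nearest to each other. Mrc1 fell by 0.67 (SE 0.11, adjusted p = 0.00108). Its locus also holds the microRNA gene Mir511.

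Cd163 (chr6:124304651-124330527, plus strand) measured 3.91, 5.10, 5.15 and 4.89 FPKM in Neg Cre and 3.25, 2.26, 2.45 and 2.50 FPKM in Pos Cre. Pos Cre 1 was again the highest library of its group, and the groups did not overlap. Cd163 fell by 0.68 (SE 0.11, adjusted p = 0.00102) to 54.9% of the Neg Cre mean. Mrc1 and Cd163 were each called under all 20 alternative fits.

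Of the receptors for growth factor and chemokine, Csf1r fell and Cx3cr1 was not called. Csf1r (chr18:61105572-61131139, plus strand) measured 16.0, 17.7, 15.9 and 18.6 FPKM in Neg Cre and 11.7, 10.6, 11.4 and 15.1 FPKM in Pos Cre. Pos Cre 4 came within 1 FPKM of the lowest Neg Cre library, and the other Pos Cre libraries were well below. Csf1r fell by 0.46 (SE 0.11, adjusted p = 0.00714), the smallest change among the called members, and its call was lost with libraries scaled to the same sum (-0.19, adjusted p = 0.181). Its locus holds the microRNA gene Mir6983.

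Cx3cr1 (chr9:120048683-120068296, minus strand) measured 1.37, 1.78, 1.83 and 1.12 FPKM in Neg Cre and 2.88, 1.17, 2.37 and 1.83 FPKM in Pos Cre. The lowest Pos Cre library, Pos Cre 2, lay inside the Neg Cre range. Pos Cre 1 and Pos Cre 3 were above all Neg Cre libraries, and Pos Cre 4 (1.833 FPKM) was level with the highest of them (1.83 FPKM in Neg Cre 3). The difference of 0.26 (SE 0.18, adjusted p = 0.292) was not called under any of the 20 alternative fits, whose adjusted p ran from 0.0676 to 0.584. The value rests on an estimated 27.7 to 253 fragments per library. Relative to Csf1r within each library, Cx3cr1 was 0.0856, 0.1, 0.115 and 0.0599 in Neg Cre and 0.245, 0.111, 0.207 and 0.121 in Pos Cre, with an overlap at Neg Cre 3 and Pos Cre 2.

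Ordered by Neg Cre level, the members ran from C1qa (65.9 ± 2.49 FPKM) through C1qb (50.9 ± 7.35) and C1qc (42.7 ± 10.9) to Csf1r (17.1 ± 1.33) and Mrc1 (16.7 ± 2.18), then Lyve1 (12.4 ± 1.81) and Folr2 (11.4 ± 1.71), then Cd163 (4.76 ± 0.577), and last Cx3cr1 (1.52 ± 0.34) and Timd4 (1.48 ± 0.193). C1qb and C1qc, Csf1r and Mrc1, Lyve1 and Folr2, and Cx3cr1 and Timd4 each differed by less than the larger SD of the pair. In Pos Cre the order of the 10 means was the same, with C1qa at 39.4 ± 4.69 and Csf1r at 12.2 ± 1.99 FPKM. Cx3cr1 (2.06 ± 0.731) and Timd4 (0.546 ± 0.236) were then apart. Among the tested genes, C1qa stood at percentile 90.7 of the Neg Cre levels and Timd4 at 6.54.

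The sign of each member's difference was the same in both batches of libraries. Among the libraries with high Rn45s (3 Neg Cre, 2 Pos Cre), the log2 difference was -0.64 for Lyve1, -0.76 for Folr2, -0.70 for C1qa and -0.55 for Csf1r. Among those with low Rn45s (1 Neg Cre, 2 Pos Cre, no test) it was -0.99, -0.96, -0.82 and -0.41 in the same order. C1qc differed most between the batches, at -0.40 and -0.77. The other 9 members were lower in Pos Cre in both batches, and Cx3cr1 was higher in both (0.26 and 0.15).

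Each member was also divided by other macrophage genes of the same library, as a difference of log2(FPKM + 1). For genes well above the pseudocount such a ratio depends little on how the library was scaled, while for low genes such as Timd4 it moves with the pseudocount (-0.42 at 1 FPKM and -1.02 at 0.1 FPKM). The reference was the mean log2 level of Adgre1 (F4/80), Cd68, Fcgr1, Mertk, Ptprc, Tyrobp, Fcer1g and Laptm5, genes shared by most macrophages and other myeloid cells. These are part of a list of 18 such genes, chosen with earlier results of these data known. None of them was called, and Fcgr1 was not tested. The called genes of that list (Lyz2, Itgam and Cybb lower, Lgmn higher) are not in the reference. Relative to this reference, 5 of 10 members were lower in Pos Cre without overlap, against 4.16% of all genes: Folr2 (-0.57), C1qa (-0.47), Timd4 (-0.42), Cd163 (-0.41) and C1qb (-0.37). Timd4 passed the filter at a mean of 1 FPKM through the Neg Cre group alone. Counted without Timd4, Folr2, C1qa, Cd163 and C1qb remain. Of all genes, 16.6% were higher without overlap, and the median difference of all genes relative to this reference was 0.26. The small share of lower genes is to be read beside that shift. The log2 ratio of C1qa was 3.28, 3.03, 3.48 and 3.202 in Neg Cre and 2.81, 2.84, 2.90 and 2.56 in Pos Cre. Pos Cre 4 had the lowest ratio for Lyve1, Timd4, Folr2, Mrc1, Cd163, C1qa and C1qb. With a pseudocount of 0.1 FPKM in place of 1 the count was 3 (Timd4, Folr2 and Cd163), and the share of all genes was not counted.

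Against Csf1r alone, no member was separate on the lower side. Of the 9 other members, 0 were lower without overlap, against 3.35% of all genes, and the ratio of Cx3cr1 was higher without overlap (0.72), against 41.9% of all genes. Csf1r was itself called lower, and the median difference of all genes relative to it was 0.454. Both shares are to be read beside that shift. With a pseudocount of 0.1 FPKM the ratio of Cx3cr1 overlapped. Leaving out Pos Cre 1 raised the count of lower ratios to 4, leaving out Neg Cre 4 to 2 and leaving out Neg Cre 1 to 1. The share of all genes was not counted for that pseudocount or with libraries left out. Against Adgre1 alone, 3 members (Lyve1, Folr2 and C1qa) were lower without overlap, beside 3.13% of all genes, and none was higher, beside 19.5%. The median difference of all genes relative to Adgre1 was 0.335. These ratios carry no test.

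**Figure D2:**
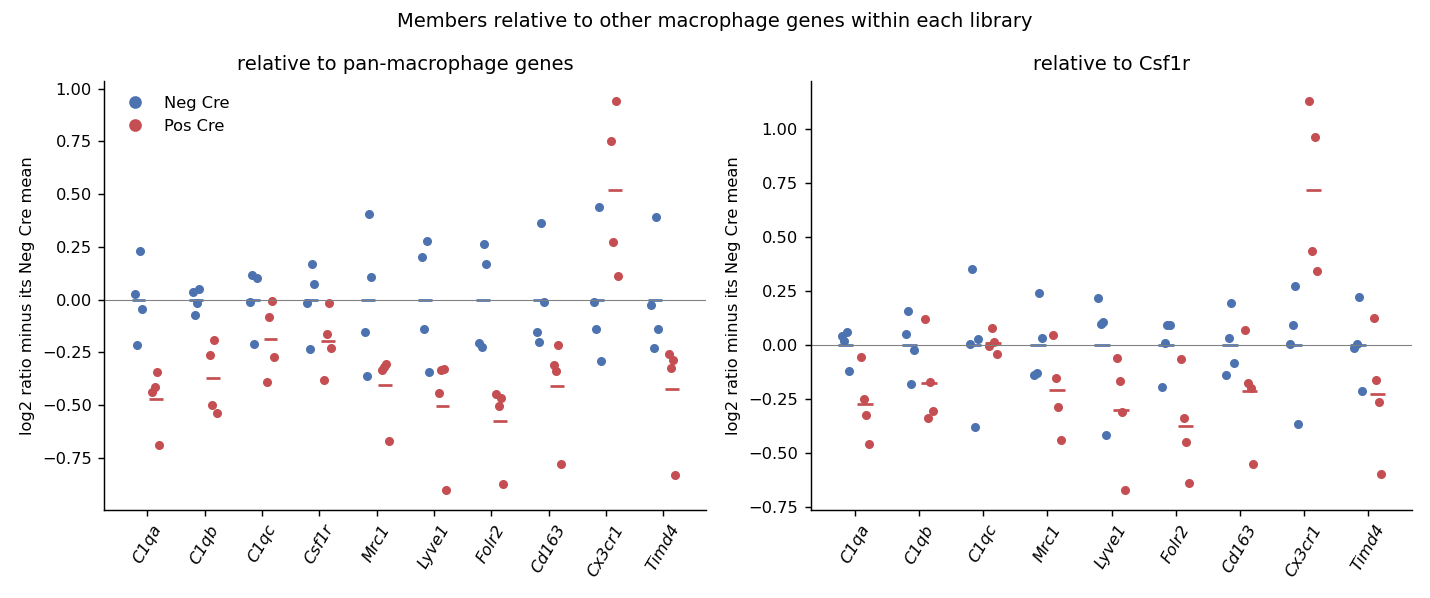
Log2 ratio of each member to the mean of 8 pan-macrophage genes (left) and to Csf1r (right) within each library, drawn as the difference from the Neg Cre mean (y axis, log2 units); points are libraries and bars are group means. On the left Folr2, C1qa, Timd4, Cd163 and C1qb are separate between the groups, and on the right only Cx3cr1 is.

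The other genes of the resident programme split. Of 20 listed, 15 were tested, 8 were lower and 2 higher, with a median change of -0.35. Pf4, a platelet factor that resident macrophages also express, fell from 27.2 ± 4.64 to 12.5 ± 2.33 FPKM (-1.06, adjusted p = 0.000301). F13a1, the A chain of coagulation factor XIII, fell from 26.7 ± 4.49 to 13.9 ± 1.96 FPKM (-0.90, 0.000457). Mgl2, a galactose lectin, and Fcna, a ficolin, each fell by 0.96. The macrophage transcription factor Maf fell by 0.76 (adjusted p = 0.00355). Cbr2 (-0.57, adjusted p = 0.00778) fell, a call lost with libraries scaled to the same sum and among libraries with high Rn45s.

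Gas6, a bridging ligand for dying cells, rose from 60.5 ± 5.80 to 110.6 ± 6.54 FPKM (0.86, adjusted p = 2.89e-05), and Igf1, a growth factor, rose from 4.46 ± 1.28 to 7.61 ± 1.36 FPKM (0.67, 0.00872), a call lost among libraries with high Rn45s (adjusted p = 0.0533). Fibroblasts make both as well. Of 10 fibroblast markers, 6 rose and 1 fell (9 rose and 1 fell with libraries scaled to the same sum), and their summed level was 1146 to 1254 FPKM in Neg Cre and 1517 to 1813 in Pos Cre. The part of fibroblasts in the rise of Gas6 and Igf1 was not tested.

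Genes shared by most macrophages and other myeloid cells were mostly not called. Of 18 listed, 17 were tested, 3 were lower, 1 was higher and 13 were not called, with a median change of -0.34. Lyz2, the lysozyme of myeloid cells, fell by 0.67 (adjusted p = 0.00861), Itgam by 0.54 and Cybb, the oxidase subunit of phagocytes, by 0.52. None of the 3 was called with libraries scaled to the same sum, and 5 genes of the list were called lower without Pos Cre 4. Adgre1 was 6.47 ± 0.991 and 4.97 ± 1.38 FPKM (-0.34, adjusted p = 0.112), with Pos Cre 4 at 6.85 FPKM above 3 of the Neg Cre libraries. Without Pos Cre 4 it was called (-0.48, adjusted p = 0.0206). Lgmn, a lysosomal protease that other tissue cells also make, rose from 72.8 ± 4.50 to 129.9 ± 6.70 FPKM (0.83, adjusted p = 1.55e-05).

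Genes of MHC class II macrophages gave no call in either direction. Of 7 listed, 6 were tested, with a median change of -0.03 and none at an unadjusted p under 0.05 in limma. H2-Aa, an antigen-presenting chain, was 22.5 ± 1.28 FPKM in Neg Cre and 26.3, 18.3, 15.4 and 35.1 FPKM in Pos Cre 1 to 4, and the invariant chain gene Cd74 was 42.8 ± 6.25 and 43.2 ± 16.1 FPKM. The Pos Cre libraries were far more spread than the Neg Cre libraries, with Pos Cre 4 highest for both genes. Without Pos Cre 4, 1 gene of this list (H2-DMb1) was called lower.

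Of 15 genes of monocytes and recruited macrophages, 8 were tested, 3 rose and none fell, with a median change of 0.71. That median lies between Nr4a1 (0.66) and Spp1 (0.75), neither of them called. Spp1 passed the filter through Pos Cre 4 alone (8.92 FPKM, against 0.328 to 0.96 in the other Pos Cre libraries). The count that rose was 5 with libraries scaled to the same sum. The 3 were Gpnmb, a membrane glycoprotein of lipid-laden macrophages (0.473 ± 0.241 to 3.91 ± 0.963 FPKM, 1.73, adjusted p = 2.93e-05), Vcan, a matrix proteoglycan (1.26, 5.87e-05), and the matrix protein Thbs1 (0.92, 0.000807). Vcan and Thbs1 are also made by fibroblasts, and Gpnmb passed the filter through the Pos Cre group alone. Ccr2, the chemokine receptor of monocytes, was at 1.89 ± 0.285 and 2.56 ± 2.73 FPKM (adjusted p = 0.966), and Ly6c2 was at 5.62 and 4.92 FPKM on average (0.789). Plac8 and Chil3, further monocyte genes, were below 1 FPKM on average in both groups.

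The ligands of these receptors were read in the same libraries. Csf1, the main growth factor of macrophages, measured 17.4, 14.6, 19.1 and 20.2 FPKM in Neg Cre and 9.86, 7.75, 8.01 and 8.45 FPKM in Pos Cre. The groups were well apart, and Csf1 fell by 0.98 (SE 0.11, adjusted p = 6.98e-05) to 47.7% of its Neg Cre mean. Its receptor Csf1r stood at 71.5%, and the ratio of Csf1r to Csf1 was 0.924, 1.21, 0.83 and 0.92 in Neg Cre and 1.19, 1.36, 1.43 and 1.79 in Pos Cre. Il34, the other ligand of Csf1r, was at 1.88 ± 0.876 and 1.87 ± 0.336 FPKM (adjusted p = 0.9).

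Cx3cl1, fractalkine, was 2.59, 4.08, 2.2 and 4.25 FPKM in Neg Cre and 6.44, 5.74, 5.68 and 4.95 FPKM in Pos Cre. It rose by 0.68 (SE 0.16, adjusted p = 0.00795) without overlap, while its receptor Cx3cr1 was not called. Cxcl12, a chemokine that holds leukocytes in tissue, fell by 0.47 (adjusted p = 0.000865). Of the 12 genes of this list, which also holds the GM-CSF receptor chains Csf2ra and Csf2rb, 10 were tested, 3 fell and 1 rose, and 2 rose without Neg Cre 2, Pos Cre 2 or Pos Cre 3 and with a pseudocount of 0.1 FPKM. With libraries scaled to the same sum 3 rose. The third that fell, the monocyte chemokine Ccl12 (-1.04, adjusted p = 0.0277), came to -0.54 (adjusted p = 0.329) among libraries with high Rn45s. It also lost its call with no filter (0.0682), when Neg Cre 2 or 3 or Pos Cre 2, 3 or 4 was left out, and with the replicate block (adjusted p = 0.0568).

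**Figure D3:**
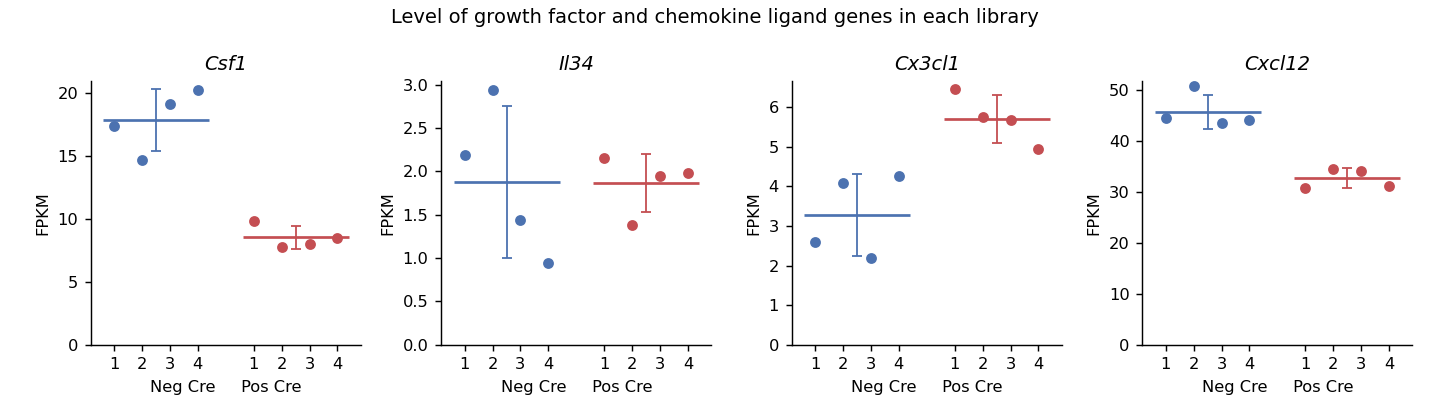
FPKM of Csf1, Il34, Cx3cl1 and Cxcl12 (y axis, from 0) in the 4 Neg Cre (blue) and 4 Pos Cre (red) libraries; horizontal lines are group means and bars are SD. Csf1 and Cxcl12 are lower and Cx3cl1 is higher in Pos Cre without overlap, and Il34 overlaps.

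The pathways around the members gave mixed counts. Of 21 complement genes around C1q, 14 were tested, 2 rose and 2 fell, with a median change of 0.01. Scaling libraries to the same sum gave 7 that rose, and testing with no filter on low values gave none. C3, the central complement protein, fell from 34.4 ± 7.13 to 15.7 ± 5.32 FPKM (-1.13, adjusted p = 0.00314). C1qbp, a mitochondrial protein that binds C1q, fell from 79.1 ± 4.604 to 41.2 ± 2.07 FPKM (-0.92, 6.87e-06). The 2 that rose, C4b (0.65, adjusted p = 0.0285) and the C1 inhibitor gene Serping1 (0.33, 0.043), lost their calls with no filter on low values. C4b also lost it without Neg Cre 1 or 3 or Pos Cre 1 or 2, and Serping1 without Neg Cre 1, 3 or 4 or Pos Cre 1, 2 or 3 and with the replicate block (adjusted p = 0.0773). Without Pos Cre 4, 4 genes of this list fell. The protease partners of C1q were not called: C1ra was at 5.64 and 5.89 FPKM on average and C1s1 at 18.3 and 15.03 FPKM (adjusted p = 0.0556).

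Of 15 other genes of the uptake of dying cells, the process Timd4 serves, 10 were tested, 7 rose and 1 fell. Mfge8, a bridging protein, rose from 76.0 ± 13.2 to 190.2 ± 13.8 FPKM (1.33, adjusted p = 1.6e-05), and the integrin genes Itgb5 and Itgav that bind it rose by 0.97 and 0.93. Lrp1, a receptor of many ligands, rose by 0.76. The gene that fell was Cd36, a fatty acid transporter abundant in cardiomyocytes and endothelium (851.0 ± 127.0 to 512.6 ± 46.3 FPKM). Fibroblasts and other cells also express the integrins, Lrp1 and Mfge8.

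Around Cd163, 8 of 10 genes of haemoglobin and haem clearance were tested and 1 fell, the iron exporter Slc40a1 (11.9 ± 2.90 to 5.91 ± 0.869 FPKM, -0.88, adjusted p = 0.00141). With libraries scaled to the same sum 3 genes of this list rose and with quantile normalization 2 did. Without Neg Cre 2 or 3 the count that fell was 2, and without Neg Cre 2 1 gene rose. Around Lyve1, 4 of 9 hyaluronan genes were tested and 2 rose, the receptor Cd44 (4.69 ± 1.04 to 9.36 ± 0.463 FPKM, 0.88, adjusted p = 0.00037) and the hyaluronidase gene Tmem2 (0.67, 0.000503). Around Folr2, 2 of 4 folate genes were tested, and the transporter Slc46a1 rose (0.40, adjusted p = 0.0387) but lost its call without Neg Cre 1, 3 or 4 or Pos Cre 2 or 3, with no filter (0.0704), with quantile normalization (0.0536), with the Rn45s term (0.0566), among libraries with high Rn45s (0.0986) and with the replicate block (adjusted p = 0.0826).

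Other cell types moved as well. Of 8 cardiomyocyte markers, 7 were tested, 6 fell and none rose (1 rose with libraries scaled to the same sum or with quantile normalization), with a median change of -1.57, and their summed level was 54730 to 58300 FPKM in Neg Cre and 26200 to 27340 in Pos Cre. Of 10 endothelial markers 3 fell and 1 rose, with a median of -0.23, and their summed level was 453.7 to 533.4 and 390.0 to 462.0 FPKM. With libraries scaled to the same sum 1 fell and 3 rose, and among libraries with high Rn45s 1 fell and none rose. Cdh5 (-0.36, adjusted p = 0.028) came to -0.07 (adjusted p = 0.664) with libraries scaled to the same sum, and also lost its call with no filter (0.0508), with quantile normalization (0.0876), among libraries with high Rn45s (0.185), without Neg Cre 3 or 4 or Pos Cre 2, 3 or 4 and with the replicate block (0.0533), and Vwf (0.63, 0.0232) lost its call with no filter (0.0559), among libraries with high Rn45s (0.0796) and without Neg Cre 1, Neg Cre 4 or Pos Cre 4. The receptor gene Kdr fell from 69.8 ± 7.18 to 43.9 ± 2.65 FPKM, while Tek fell by 0.28 and stood at 0.00 with libraries scaled to the same sum. The summed level of 7 T and NK cell markers stayed at or under 2.0 FPKM in each library and that of 4 B cell markers at or under 4.64 FPKM. The neutrophil markers summed to 74.9 FPKM in Neg Cre 2 and to 1.94 to 7.31 FPKM in the other libraries. With Neg Cre 2 and Pos Cre 4 both left out, 8 members were still called lower. The part of changing cell proportions in the members' levels was not tested.

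As a description of which genes varied most like C1q between libraries of the same group, the deviations from the group means were correlated with those of the mean of C1qa, C1qb and C1qc over the 8 libraries. The 10 most alike were F13a1 (r = 0.988), Eif3d (0.967), Alg8 (0.962), Irf5 (0.96), Vasp (0.956), Dse (0.952), 4930577N17Rik (0.951), Zfp335 (0.947), Serpina3n (0.941) and Stbd1 (0.939). F13a1 is the only one of them in a macrophage list used here. The other members ranked lower, with Csf1r at 0.741, Folr2 at 0.55, Cd163 at 0.352, Cx3cr1 at 0.245, Mrc1 at 0.226, Timd4 at 0.189 and Lyve1 at 0.143. The libraries share group, batch and depth, and no test was made.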

How the data were processed

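RNA from mouse ventricle was sequenced in 8 libraries after depletion of ribosomal RNA with a stranded total RNA kit, per the labels' protocols. The deposited values are FPKM, made by the authors with Cufflinks after Bowtie2 2.2.6 on mm10, per the submitters' processing notes. The annotation, the use of strand and any filter are not stated there. The lowest value, 0.01 FPKM, stands in 32.6% to 39.0% of genes per library. Starts are given from 1, since adding 1 made 11866 starts equal the RefSeq GRCm38 table, against 680 as written. In 3 genes a word replaced a number in 6 cells, and these genes were left out.

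Depth was estimated from 3664 genes of 500 to 4000 bases, whose FPKM times length clusters at 1 fragment. A count of 0 allows 3 fragments, which is 0.0629 to 0.329 FPKM for a transcript of 2 kb (counting error only).

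Pos Cre was set against Neg Cre on the scale of log2(FPKM + 1) by limma 3.58.1, run in R 4.3.3 (eBayes with a trend, two-sided). P-values were adjusted by Benjamini-Hochberg over the 11685 genes whose mean reached 1 FPKM, and genes were called at an adjusted p under 0.05. The test was tested on simulated data. Named genes were all 10 members, Med13 and Med13l, up to 4 called genes of each list with the largest change (or the 2 most abundant ones if under 2 were called) and the 10 genes most like C1q. Not every gene the rule names is described, some list genes are not reported here, and Cbr2, Maf, Gas6, Igf1, Adgre1, H2-DMb1, Ccr2, Ly6c2, Plac8, Chil3, Il34, Flt4, C1ra, C1s1 and Cd36 were named after their values were seen. The members and lists were chosen with earlier results of these data known. Ratios within a library have no test.

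Alternatives were other pseudocounts (0.1 and 0.5 FPKM), filters, scalings, Rn45s batches split at 100 FPKM, the replicate block, no variance trend and leaving out each library. Added after seeing the data were Neg Cre 1 and 2 averaged (their library names share a stem), the libraries with low Rn45s alone, and Neg Cre 2 and Pos Cre 4 left out together.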

Additional observations from a re-analysis of the deposited data

Results flagged for a closer look

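In each group of 4 libraries, 65 named genes were searched for a highest or lowest library that stood far from the others for the range of its group. Of 130 groups, 11 held such a library (8.46%), and chance alone gives about 1 in 20. No explanation was weighed.

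Among the members, Lyve1 in Pos Cre 1 was 8.001 FPKM, where the other Pos Cre libraries held 6.41 to 6.60. Timd4 in the same library was 0.899 FPKM, where the others held 0.415 to 0.456. C1qc in Pos Cre 4 was 36.0 FPKM, where the others held 27.9 to 28.9.

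Among the other genes, Med13l in Neg Cre 3 was 6.13 FPKM (others 4.39 to 4.62), Fcna in Neg Cre 4 was 3.83 FPKM (2.49 to 2.67), Cxcl12 in Neg Cre 2 was 50.8 FPKM (43.6 to 44.6) and C4b in Pos Cre 1 was 6.60 FPKM (4.48 to 4.54). Cd44 in Pos Cre 3 was 8.68 FPKM, below the others at 9.51 to 9.68, and Col3a1 in Pos Cre 2 was 145.4 FPKM, below the others at 201.3 to 208.2. The neutrophil genes S100a8 and S100a9 in Neg Cre 2 were 32.0 and 37.8 FPKM, where the other Neg Cre libraries held 1.53 to 2.55 and 0.419 to 3.86 FPKM.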

How the results depend on the processing

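The count of members called lower was 6 to 9 over all alternatives with a test, and 8 to 9 when each library was left out in turn. It was 6 with libraries scaled to the same sum and among libraries with high Rn45s, and 9 with quantile normalization, with the Rn45s term, with the replicate block, without Neg Cre 3 and without Pos Cre 4. No member was called higher in any of these fits. Over all genes, scaling to the same sum gave 5110 higher and 1068 lower, against 2307 and 2268, and leaving out each library gave 1862 to 2335 higher and 1862 to 2317 lower. The libraries with high Rn45s alone gave 1561 higher and 1532 lower over all genes. The count of members with a lower ratio to Csf1r and no overlap was 0, ran from 0 to 4 when each library was left out, and was 3 with Adgre1 in place of Csf1r. The count relative to pan-macrophage genes was 5, ran from 5 to 7 when each library was left out, and was 3 with a pseudocount of 0.1 FPKM. Of 144 list genes tested, 29 changed sign with libraries scaled to the same sum, a scaling that raises the median of all genes, and 1 with quantile normalization. Among these sign changes, 3 involved a gene called in either fit: Fth1 with quantile normalization (0.21, adjusted p = 0.0346), and Tek (0.00413, 0.963) and Egfl7 (0.24, 0.0468) with libraries scaled to the same sum. The causes were not tested.

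Sample numbers are shared between the groups, but the deviations of same-numbered libraries from their group means correlated at -0.087, -0.162, -0.126 and -0.078, so the numbers were not taken to pair libraries. With the replicate block, 1964 genes were higher, 1900 were lower and C1qc was called (adjusted p = 0.0466). Depth limits Timd4 and Cx3cr1 most, since both rest on few fragments in the shallow libraries.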

Other observations

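Values in Pos Cre 4 parted from the rest of its group for some genes of recruited and antigen-presenting cells, chosen after their values were seen. Ccr2 was 6.51 FPKM there and 0.736 to 2.25 FPKM in the other Pos Cre libraries. Spp1, a secreted glycoprotein made by recruited macrophages, was 8.92 FPKM there and 0.328 to 0.96 FPKM in the others. Other genes of the same list went the other way, and Pos Cre 4 was the lowest Pos Cre library for Ly6c2 (3.74 FPKM), Ly6c1 (82.5 FPKM), Vcan (14.5 FPKM) and Gpnmb (2.62 FPKM). The summed level of the MHC class II list was 147.3 FPKM in Pos Cre 4 and 61.2 to 107.2 FPKM in the other Pos Cre libraries. In the same library Lyve1 (6.46 FPKM), Timd4 (0.456 FPKM) and Cd163 (2.50 FPKM) were within the range of the other Pos Cre libraries, while C1qc (36.0 FPKM) and Csf1r (15.1 FPKM) were above it.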
